A study of Mus musculus with 249 samples.

Results

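Cresyl violet staining was compared with no stain in 26 genome architecture mapping (GAM) libraries of 46C mouse embryonic stem cells (strain 129/Ola). These were all the libraries of the 249 in the deposited table whose titles name the cresyl violet test. The stained arm held 16 libraries and the unstained arm 10. Sections of 220 nm in both arms were washed and dried, and 4 cellular profiles were cut by laser into each cap. Lysis ran for 4 h, the lysed DNA was frozen overnight, and the Sigma WGA4 kit was used with 25 PCR cycles before Nextera library preparation. Sections of the stained arm were also held for 10 min in 1% cresyl violet and rinsed with water. How many of the 4 profiles in a cap held a piece of nucleus is not known for any library. The labels do not say that libraries came from separate cultures, so p-values measure the spread between these libraries only.

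In GAM, a locus is detected in a tube when a slice that carries it was cut, its DNA was extracted and amplified, and enough reads were sequenced. Loci that lie close together in the nucleus tend to fall into the same slice, and the map of the genome is built from these joint detections. Cresyl violet is a basic dye that binds nucleic acids and makes cell profiles visible during microdissection. A stain that held back or damaged DNA would leave gaps along stretches of chromosome that were in the slice. The question put by this comparison was whether stained sections still gave up their DNA.

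None of the 15 library measures differed between the arms at an adjusted p of 0.05, and none had an unadjusted p under 0.05 (two-sided permutation tests over libraries, 0% called at either level). The lowest adjusted p was 0.628. A p above the threshold does not show that the arms were alike, so the differences of means are given with their 95% intervals.

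Coverage, the percent of the 68162 listed windows of 40 kb that were positive, ran from 11.6% to 45.2% in the stained libraries, with a median of 18.5%. In the unstained libraries it ran from 15.5% to 32.6%, with a median of 24.8%. The ranges overlapped, although 4 stained libraries lay below the lowest unstained library and 1 lay above the highest. Mean coverage was 20.9% ± 8.41 (SD, n = 16) in stained and 23.3% ± 5.18 (SD, n = 10) in unstained libraries. The difference of -2.34 points had an interval from -8.29 to 3.75 (permutation p = 0.453, adjusted p = 0.628). Coverage also appeared more spread in the stained arm, where the mean distance from the arm's median was 5.81 points against 3.67, but this too did not pass the test (log2 ratio 0.66, permutation p = 0.205, adjusted p = 0.628). Without the stained library of highest coverage, CVD5, the log2 ratio was 0.25 (permutation p = 0.477).

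A stained library, CVD5, stood apart from the other 25. It had the highest coverage, 45.2%, and also the lowest neighbour share, the percent of positive autosomal windows with a positive window beside them, at 81.5%. Its isolated rate was 27.1%, while the other 25 libraries lay between 1.10% and 3.79%. The isolated rate is the percent positive among detectable windows with no positive window among the 2 on each side, so it follows scattered signal away from any detected stretch. Without CVD5, the stained mean coverage was 19.3% ± 5.55 (SD, n = 15), and the difference from the unstained arm was -3.96 points (interval -8.56 to 0.626, permutation p = 0.0868). Without CVH1, the unstained library of highest coverage, it was -1.30 points (permutation p = 0.689), and between the medians of all 26 libraries it was -6.38 points (permutation p = 0.128).

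The fill rate bears most directly on gaps. It is the percent positive among detectable autosomal windows whose adjacent windows were both positive, and a detectable window is one positive in at least 25 libraries of the other experiments. It ran from 78.6% to 89.7% in stained libraries (median 83.98%) and from 76.2% to 90.3% in unstained libraries (median 86.6%). Both the highest and the lowest of all 26 values were in unstained libraries, CVA1 and CVD1. The means were 84.4% ± 3.02 (SD, n = 16) and 85.8% ± 3.79 (SD, n = 10), and the difference of -1.31 points had an interval from -4.04 to 1.46 (permutation p = 0.338, adjusted p = 0.628). Single unstained libraries moved this value both ways. Leaving out CVD1 gave -2.37 points (permutation p = 0.0443, adjusted p = 0.504). Leaving out CVA1 gave -0.808 points (permutation p = 0.560). Between the medians it was -2.58 points (permutation p = 0.115).

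Neighbour shares ran from 81.5% to 91.8% (median 90.0%) in stained and from 84.1% to 93.4% (median 90.5%) in unstained libraries, and the ranges overlapped. The difference of the means was -0.747 points (interval -2.94 to 1.42, permutation p = 0.502). It was -0.230 points without CVD5, -0.365 without CVA1 and -0.485 without CVF2, but -1.41 without CVD1 (permutation p = 0.168).

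**Figure D1:**
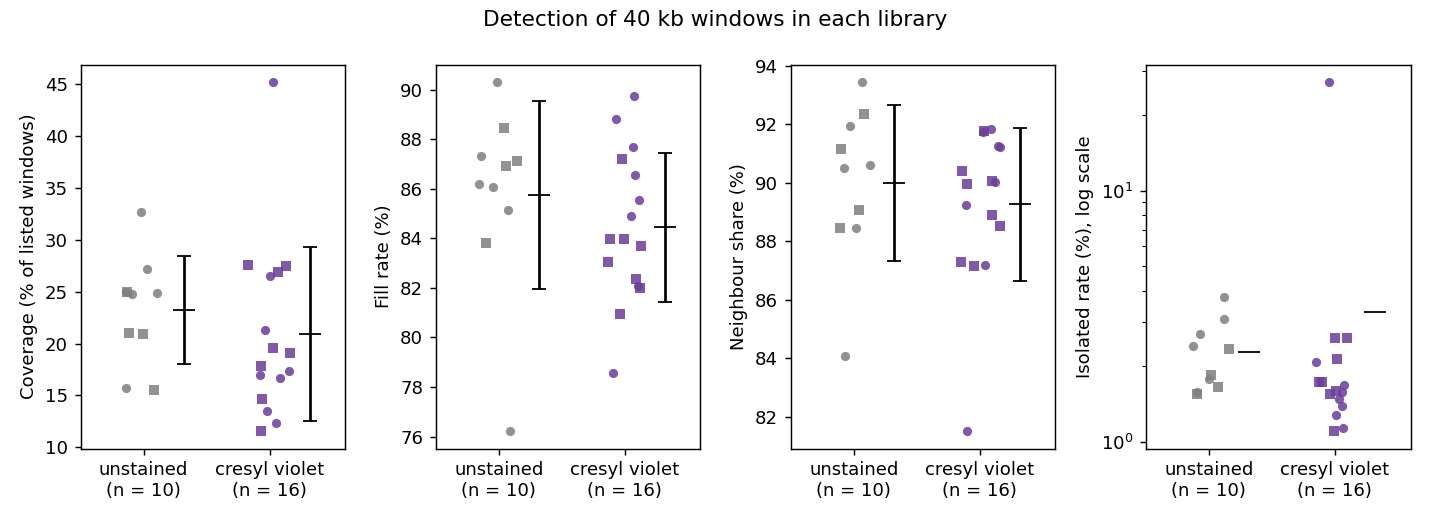
Coverage, fill rate, neighbour share and isolated rate, all in percent, of each unstained (n = 10) and cresyl violet (n = 16) library, with circles for plate columns 1 and 5 and squares for columns 2 and 6. Black bars are means with SD (the mean alone on the log axis of the isolated rate); the arms overlap in every panel, and CVD5 is the stained point at 45.2% coverage and 27.1% isolated rate.

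The isolated rate had a median of 1.63% in stained libraries, from 1.10% to 27.1%, and of 2.09% in unstained libraries, from 1.55% to 3.79%. Of the 16 stained libraries, 6 lay below the lowest unstained one. The means were 3.30% ± 6.37 (SD, n = 16) and 2.27% ± 0.746 (SD, n = 10), a difference of 1.03 points (interval -1.98 to 4.68, permutation p = 0.990). The sign and size of this difference varied with the setting. With coverage as a covariate it was 2.43 points (permutation p = 0.117). Without CVD5 the stained mean was 1.71% ± 0.462 (SD, n = 15), 0.56 points under the unstained mean (difference -0.562, interval -1.06 to -0.0701, permutation p = 0.0254, adjusted p = 0.381). Within the stained arm the isolated rate followed coverage, with a Spearman rho of 0.924 over 16 libraries (0.539 over the 10 unstained ones). Both measures come from the same calls of a library, so this is a description only.

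**Figure D2:**
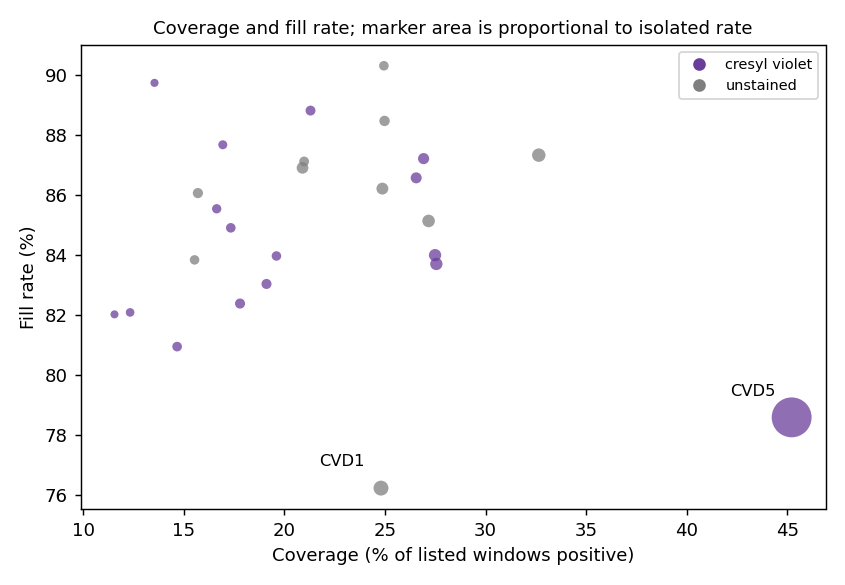
Fill rate against coverage, both in percent, with 1 point per library and marker area proportional to the isolated rate. CVD5 combines 45.2% coverage with a fill rate of 78.6% and the largest marker; CVD1, an unstained library, has the lowest fill rate, 76.2%, at a coverage of 24.8%.

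Positive windows lie in runs, which stand for stretches of chromosome in a slice. Runs at least as long as the run length hold the larger part of a library's positive autosomal windows, and longer runs alone do not. The run length had a median of 240 kb in stained libraries (200 to 400 kb) and 280 kb in unstained libraries (160 to 440 kb). The difference of the means was -33.5 kb (interval -86.4 to 20.0, permutation p = 0.218). With runs bridged over single negative windows it was -100 kb (permutation p = 0.0589), and without CVA1 it was -17.5 kb. The longest single run was between 1640 and 4840 kb in stained and between 1760 and 8640 kb in unstained libraries. Runs of at least 1 Mb held 8.25% ± 4.02 (SD, n = 16) of the stained and 11.3% ± 5.14 (SD, n = 10) of the unstained positive windows. Runs of a single window made up 39.3% ± 4.47 and 39.1% ± 3.62 of all runs. CVD5 again lay apart, with 10193 runs, of which 54.03% were single windows. Apart from the run length and its bridged form, these run statistics were chosen after the library values had been seen and were not tested.

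Detection of a window depends on that of its neighbours over a distance. This decay was measured along each library, whereas GAM reads proximity from joint detection of loci across many tubes. At 40 kb the correlation of calls within a library was 0.643 ± 0.0940 (SD, n = 16) in stained and 0.663 ± 0.0583 (SD, n = 10) in unstained libraries. At 200 kb it was 0.478 and 0.510, a difference of -0.0315 (interval -0.0878 to 0.0230, permutation p = 0.279), and at 1 Mb 0.288 and 0.317, a difference of -0.0290 (interval -0.0736 to 0.0151, permutation p = 0.194). At 10 Mb, the longest distance measured, it was 0.0916 and 0.0942. Without CVD5 the difference at 200 kb was -0.0159, between the medians it was -0.0199, and with coverage as a covariate it was -0.0480 (permutation p = 0.0449, adjusted p = 0.410). At 1 Mb it was -0.0156 without CVG1, -0.0061 between the medians and -0.0393 with coverage as a covariate (permutation p = 0.0547, adjusted p = 0.410).

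**Figure D3:**
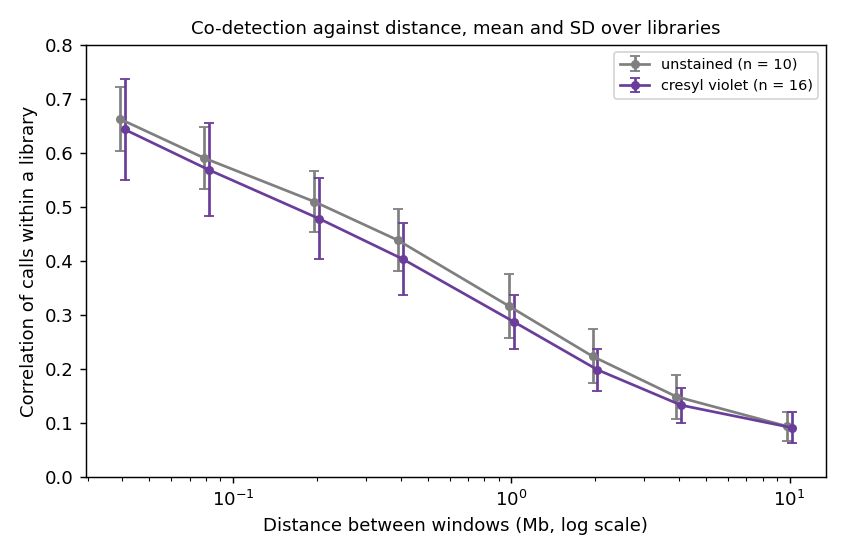
Correlation of the calls of a library between windows at a given distance (Mb, log scale), as mean and SD over stained (n = 16) and unstained (n = 10) libraries. Both arms fall from about 0.65 at the shortest distance to under 0.10 at 10 Mb, and their SDs overlap throughout.

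Each library sampled its own part of the genome. Over the 58728 detectable autosomal windows, the correlation between libraries was between -0.0651 and 0.0704 within the stained arm (120 pairs), between -0.0494 and 0.0513 within the unstained arm (45 pairs) and between -0.0741 and 0.0642 across arms (160 pairs). No pair was identical. Together the 16 stained libraries detected 98.5% of these windows and the 10 unstained ones 94.9%. For an equal number of libraries, 10 of the 16 stained would detect 92.9% on average, and 0.100% of the windows were found in neither arm.

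A set of 8 detectable autosomal windows was positive in all 26 libraries, and each was positive in at least 186 libraries of the other experiments. They were singled out after their values were seen. By mm9 coordinates, 1 lay on chromosome 2 at 98480001 to 98520000, over the predicted genes Gm10801 and Gm10800. On chromosome 6, the window at 103560001 to 103600000 overlapped Chl1, a neural cell adhesion gene. On chromosome 11, 2 adjacent windows from 3040001 to 3120000 overlapped Sfi1, which encodes a centrosome protein. Being positive throughout, they do not separate the arms.

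Stained libraries detected 17.2 autosomes on average and unstained libraries 17.8 of the 19, counting an autosome with at least 5% of its detectable windows positive. The difference of -0.55 had an interval from -1.80 to 0.671 (permutation p = 0.439). It was -0.267 without CVC5, -0.861 without CVG1 and -0.0866 with coverage as a covariate. Lowest were 13 chromosomes in the stained library CVC5 and 15 in the unstained library CVG1. Unevenness between chromosomes, the SD of the chromosomes' percents divided by their mean, was 0.533 ± 0.139 (SD, n = 16) and 0.486 ± 0.134 (SD, n = 10), a difference of 0.0473 (interval -0.0669 to 0.161, permutation p = 0.405). This difference was 0.0269 without CVC5, 0.0292 without CVF1, 0.0804 without CVG1, 0.0758 between the medians and -0.000132 with coverage as a covariate.

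No chromosome passed the test (0% of 20 called), and 1 of 20, or 5%, had an unadjusted p under 0.05. This was chromosome 2, of whose windows 6.11% to 53.7% (median 17.6%) were positive in stained and 11.5% to 59.4% (median 29.6%) in unstained libraries. Relative to the other autosomes of the same library, it was detected less in the stained arm (difference -8.05 points, interval -16.1 to -0.211, permutation p = 0.0443, adjusted p = 0.820). With each library left out in turn, the unadjusted p was over 0.05 in 15 of 26 cases. The difference then ran from -9.66 points without CVF1 (permutation p = 0.0165) to -4.98 points without CVA1 (permutation p = 0.134). Chromosome 12 had nearly the same difference, -8.06 points (interval -18.4 to 2.33, permutation p = 0.119). The largest positive differences were 6.68 points on chromosome 11 (interval -4.17 to 17.5) and 6.58 points on chromosome 19 (interval -7.17 to 20.3).

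Chromosome X was detected less than the autosomes in both arms. Its detectable windows were positive at 0.463% to 32.9% (median 11.9%) in stained and 2.25% to 33.2% (median 13.3%) in unstained libraries. As a ratio to the autosomes this was 0.574 ± 0.414 (SD, n = 16) and 0.610 ± 0.472 (SD, n = 10), a difference of -0.0357 (interval -0.399 to 0.325, permutation p = 0.838). The direction turned with medians (0.0607), over all listed windows (0.0160) and with 6 of the 26 libraries left out in turn. The ratio was under 0.2 in 4 of 16 stained and 3 of 10 unstained libraries, and over 1 in 3 and 2, classes that were set after the values were seen.

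**Figure D4:**
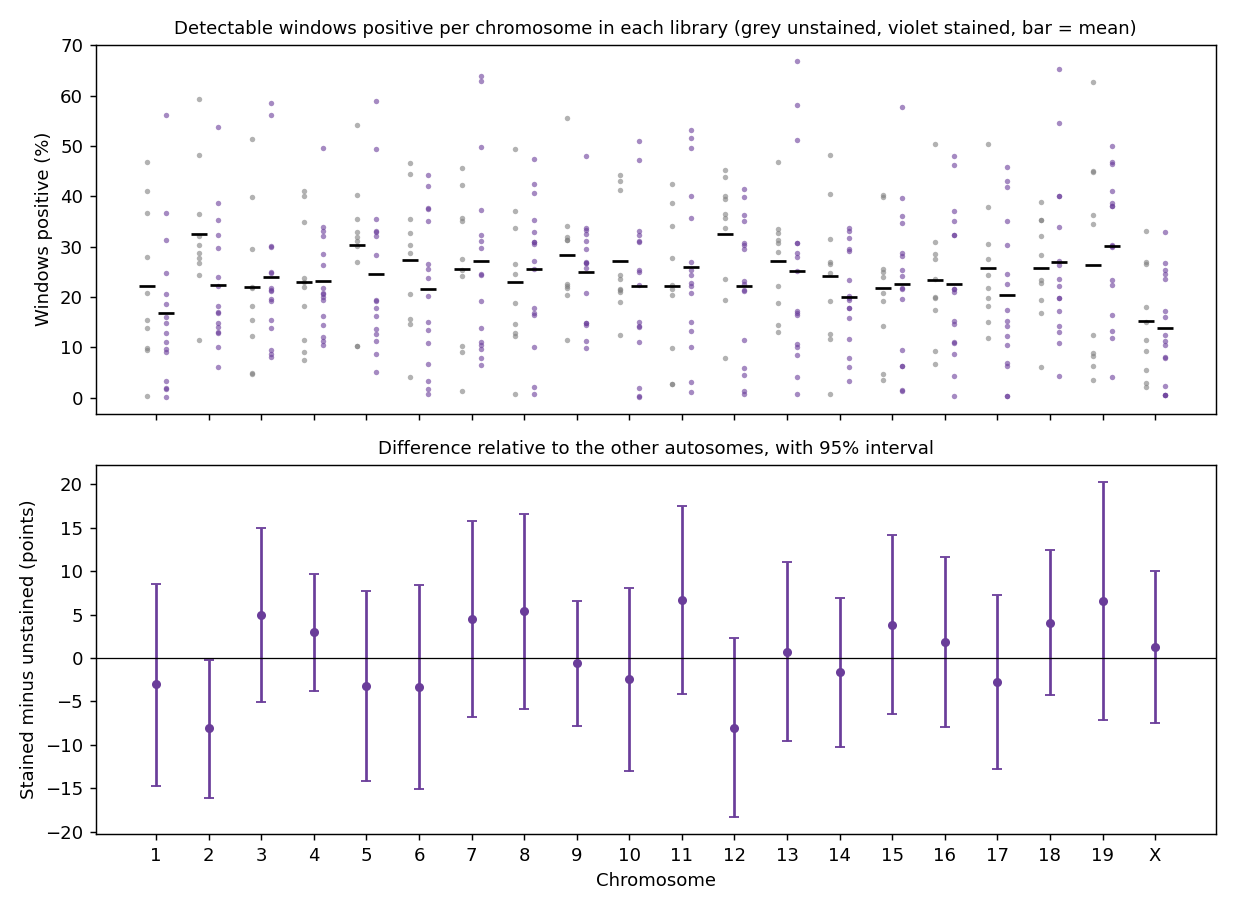
Upper panel, percent of detectable windows positive on each chromosome in every library (grey unstained, violet stained, bars for means); lower panel, difference stained minus unstained in percentage points relative to the other autosomes with its 95% interval. Chromosome 2, at -8.05 points, is the only interval that stays on one side of 0.

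Base composition was examined because amplification can favour sequences of a given GC content. Positive windows had a higher GC content than the rest by 0.386 ± 0.388 percentage points (SD, n = 16) in stained and 0.316 ± 0.494 (SD, n = 10) in unstained libraries. The arms differed by 0.0700 points (interval -0.284 to 0.429, permutation p = 0.693). The direction turned with medians (-0.115) and without CVG1 (-0.0520), and without CVF2 the difference was 0.164. Detectable autosomal windows were split into 10 equal classes by GC. Between the most GC-poor class (mean 36.2%) and the most GC-rich one (50.0%), the percent positive rose from 20.6% to 25.7% in stained and from 23.1% to 28.01% in unstained libraries. The stained mean was lower in every class, by 2.11 to 3.18 points, and all classes come from the same libraries. Fill rates by class lay between 83.98% and 84.8% in stained and between 84.5% and 86.8% in unstained libraries, a breakdown chosen after the library values had been seen.

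**Figure D5:**
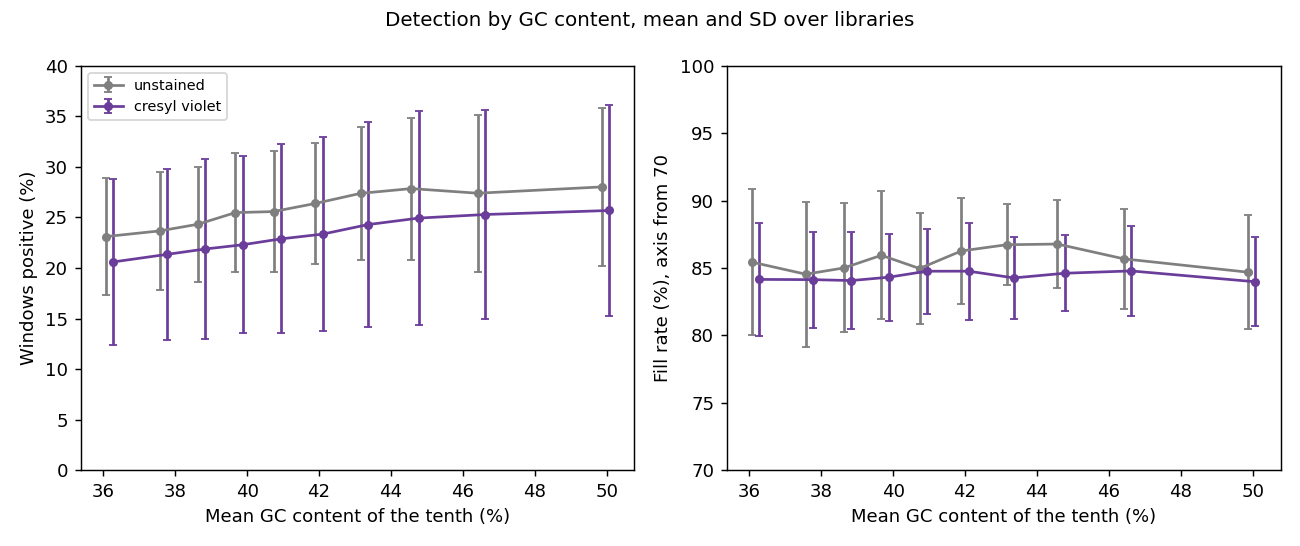
Percent of windows positive (left) and fill rate (right, axis not from 0) in 10 equal classes of detectable autosomal windows ordered by GC content, as mean and SD over libraries. The percent positive is higher in the most GC-rich class than in the most GC-poor one in both arms, and the stained arm is lower by 2.11 to 3.18 points in every class.

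Windows that overlap a protein-coding gene were detected in 24.1% ± 9.61 of cases in stained libraries and 27.1% ± 6.44 in unstained libraries, against 22.1% ± 8.95 and 24.4% ± 5.51 for windows without such a gene (SD, n = 16 and n = 10). The excess in genic windows was 2.03 points in stained and 2.68 points in unstained libraries, a difference of -0.649 (interval -1.996 to 0.723, permutation p = 0.337). Without CVG1 it was -1.16 (permutation p = 0.05003, adjusted p = 0.460), between the medians -1.38 (permutation p = 0.102) and with coverage as a covariate -0.334. The centromere-proximal 5 Mb of the autosomes were detected more than the rest by 2.18 ± 4.84 points in stained (SD, n = 16) and less by 1.13 points in unstained libraries (mean -1.13 ± 6.73, SD, n = 10). This difference of 3.31 points was not past the threshold (interval -1.38 to 8.02, permutation p = 0.157). It was 1.59 points over all listed windows, 2.11 without CVC2, and 4.52 without CVF1 (permutation p = 0.0493, adjusted p = 0.730). At the telomere-proximal 5 Mb the means were -2.73 and -0.979 points (difference -1.75, interval -6.88 to 3.30, permutation p = 0.492), a direction that turned with medians (0.206) and without CVF2 (0.0436).

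Single windows were compared by Fisher's exact test over the 59680 windows that at least 3 of the 26 libraries detected. None was called after Benjamini-Hochberg adjustment (0% called, lowest adjusted p 1), and 1555, or 2.61%, had an unadjusted p under 0.05. Of these, 1343 (2.25% of the windows tested) were lower in the stained arm and 212 (0.355%) higher. Over all windows tested, 33036 were lower and 26567 higher, with a median difference of -1.25 points. With 16 and 10 libraries, a window absent from the larger arm reaches a low p more easily than a window absent from the smaller one, so the split of low p-values does not give the direction. With strata set by low, middle and high coverage, the Cochran-Mantel-Haenszel test with continuity correction gave 475, of which 320 were lower and 155 higher in the stained arm. Even a window found in 0 of 16 stained and 8 of 10 unstained libraries was not called. With these arm sizes, the absence of calls therefore does not show that no window differed.

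The window with the lowest p lay on chromosome 2 at 131600001 to 131640000 and overlapped no protein-coding gene. None of the 16 stained libraries (0 of 16) but 8 of 10 unstained ones detected it (Fisher's exact p = 2.88e-05, adjusted p = 1), as did 23.3% of the libraries of the other experiments. On the same chromosome, the window at 79760001 to 79800000 in Pde1a, a phosphodiesterase of cyclic nucleotides, was positive in 1 of 16 and 8 of 10. The windows over Tlk1, a kinase linked to chromatin assembly, and over Mmp24, a matrix metalloproteinase, were positive in 0 of 16 and 6 of 10, as were those over Pard3b, Wasl and Tmtc1 on other chromosomes and a window without a protein-coding gene on chromosome 10 at 113360001 to 113400000.

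In the other direction, the window on chromosome 8 at 4320001 to 4360000, over Elavl1, which encodes an RNA-binding protein, and the chemokine gene Ccl25, was detected in the stained arm by 10 of 16 and in the unstained arm by 0 of 10 (Fisher's exact p = 0.00255, adjusted p = 1). The window over Ssh3 and Ankrd13d on chromosome 19 was positive in 12 of 16 and 1 of 10 (Fisher's exact p = 0.00361). Windows over Gstcd, over Efnb2, a ligand of Eph receptors, over Cfdp1, and over Ttc19 and the corepressor gene Ncor1 were each positive in 9 of 16 and 0 of 10. So were 2 windows without a protein-coding gene, on chromosome 10 at 46680001 to 46720000 and on chromosome 9 at 57040001 to 57080000. All 16 named windows had an adjusted p of 1.

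Neighbouring windows are detected together, so 2402 bins of 1 Mb were also compared. None was called (0%), and 117, or 4.87%, had an unadjusted p under 0.05, 90 of them lower in the stained arm. Of all bins tested, 1409 were lower and 992 higher. The lowest adjusted p was 0.504, for the bin on chromosome 9 from 16000001 to 17000000, which holds Fat3, an atypical cadherin gene. In the stained libraries 0% to 80% of its windows were positive (median 0%), and in the unstained libraries 0% to 100% (median 60%). The means were 10.5% ± 21.7 (SD, n = 16) and 56.0% ± 30.2 (SD, n = 10), and over 20% of the bin was detected in 3 of 16 and 9 of 10 libraries (permutation p = 0.00021). Of the bins higher in the stained arm, that on chromosome 8 from 4000001 to 5000000, around Elavl1, had the lowest p, with means of 38% ± 26.97 and 4.40% ± 9.32 (SD, n = 16 and n = 10; permutation p = 0.00138, adjusted p = 0.927). The other named bins also had an adjusted p of 0.927. On chromosome 2, the bin from 70000001 to 71000000, which holds Tlk1 and the GABA synthesis gene Gad1, had means of 13.5% and 53.2%, and that from 82000001 to 83000000, with Zfp804a and Fsip2, 12.2% and 41.6%. Higher in the stained arm were the bin on chromosome 19 from 4000001 to 5000000, around Ssh3, at 49.2% and 12.4%, and that on chromosome 16 from 32000001 to 33000000, with the transferrin receptor gene Tfrc, at 47.2% and 12.4%.

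Detection at known loci was read at the window of each gene's start. The Pou5f1 locus, which encodes the pluripotency factor Oct4, was detected by 5 of 16 libraries in the stained arm and 5 of 10 in the unstained arm. Sox2, its partner factor, was positive in 6 and 3, Nanog in 5 and 3, Klf4 in 7 and 3, Esrrb in 5 and 3, and Zfp42 in 4 and 4. Among 22 pluripotency genes the median difference was 1.25 points, with 12 higher and 10 lower in stained libraries, beside a median of -1.25 points over all detectable autosomal windows, of which 55.8% were lower in stained libraries. In this list 1 gene, the Nodal antagonist Lefty1, had an unadjusted p under 0.05, at 0 of 16 and 4 of 10 (Fisher's exact p = 0.0140, adjusted p = 1), beside 2.61% of all windows tested.

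Of 20 housekeeping genes, 12 were detected more often and 6 less often in stained libraries, with a median difference of 3.12 points, although the median levels, 31.2% and 35%, had the opposite order. Actb was positive in 5 of 16 and 4 of 10, Gapdh in 4 and 5, Tbp in 5 and 2, and Ppia, a prolyl isomerase, in 8 and 1 (Fisher's exact p = 0.0873 for Ppia, adjusted p = 1). Of 20 long neuronal genes, 9 were detected more and 11 less often in stained libraries, with a median difference of -4.38 points. Dlg2 was positive in 5 of 16 and 3 of 10, Lsamp in 5 and 0, and Cntnap2, which was positive in too few libraries to be tested, in 2 and 0. These genes were fixed for naming rather than picked by their values, although earlier results of these data were known. Of the members lower in the stained arm, picked after their values were seen, Lrp1b was positive in 2 of 16 and 4 of 10 and Nrxn3 in 4 and 5. None of the 18 long neuronal genes tested and none of the 20 housekeeping genes had an unadjusted p under 0.05, beside 2.61% of all windows tested. Of all detectable autosomal windows, 55.8% were lower in stained libraries.

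The arms occupied different columns of the plate, as the well names in the titles show. The 16 stained libraries filled all 16 positions of columns 5 and 6, while the 10 unstained libraries lay in columns 1 and 2, where 6 of 16 positions have no library in the table. What those 6 positions held is not given in the labels. Stain and plate column therefore cannot be told apart, and the comparison is between libraries that passed the study's quality control. Mean coverage was 25.0% ± 5.47 (SD, n = 6) in column 1, 20.6% ± 3.87 (SD, n = 4) in column 2, 21.2% ± 10.7 (SD, n = 8) in column 5 and 20.6% ± 6.14 (SD, n = 8) in column 6, so the means of columns 1 and 2 lay further apart than those of the arms. The libraries with the lowest fill rate of each arm, CVD1 and CVD5, were both in row D. The other library of that row, CVD6, had a fill rate of 83.0%, near the stained median of 83.98%. With libraries exchanged only within plate rows, the difference in coverage was -3.01 points (permutation p = 0.346).

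The same measures placed both arms among the other experiments, in 12 tests that also compare plates and collection. Against the full collection of 54 libraries, whose sections were stained the same way but whose caps were frozen before lysis rather than after it, the stained libraries had a higher coverage by 5.12 points (interval 1.01 to 9.23, permutation p = 0.0149, adjusted p = 0.0298). Their fill rate was higher by 9.87 points (interval 3.52 to 16.3, adjusted permutation p = 0.0166) and their neighbour share by 8.29 points (interval 2.07 to 14.7, adjusted permutation p = 0.0298). Fill rates in the full collection ran from 30.7% to 89.9% with a median of 79.4%, with an SD of 12.9 points. Without CVD5 the difference in coverage was 3.50 points (permutation p = 0.0747, adjusted p = 0.128), and between medians it was 3.51 points (adjusted p = 0.253). Between medians the differences were 4.61 points in fill rate and 3.92 points in neighbour share (adjusted permutation p = 0.0395 for both). With coverage as a covariate they were 6.11 points in fill rate (adjusted permutation p = 0.0866) and 4.14 points in neighbour share (adjusted permutation p = 0.273).

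Against the 18 unstained libraries of the eosin test, whose protocol text matches as far as the labels give it (the text is cut off before the last library steps), the unstained arm had a higher coverage by 6.60 points (interval 1.71 to 11.5, adjusted permutation p = 0.0298). Its fill rate was 85.8% ± 3.79 (SD, n = 10) against 66.95% ± 10.1 (SD, n = 18), a difference of 18.8 points (interval 12.1 to 25.7, permutation p = 1e-05, the smallest that 100000 resamples can give, adjusted p = 0.00012). Its neighbour share was higher by 13.9 points (interval 6.92 to 21.2, adjusted permutation p = 0.0018), and by 6.62 points with coverage as a covariate (adjusted permutation p = 0.0358). Against the 20 unstained libraries of the propidium iodide test, which by the labels were not frozen overnight and had other reagent volumes, the differences were 1.19 points in coverage (interval -4.84 to 7.16) and 1.01 points in fill rate (interval -1.93 to 3.95), with adjusted permutation p of 0.801 and 0.656. Coverage differed by 3.86 points between medians, and fill rate by 2.07 points without CVD1. The unstained arm of the SYBR Gold test was not compared, since its protocol text goes against its title.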

How the data were processed

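Reads were mapped to mm9 with Bowtie2 2.1 by the authors, and duplicates were dropped with Samtools. GAMtools called positive 40 kb windows with a fixed threshold of 4 reads, the same for every library, as their methods state. These deposited other values are calls of 0 or 1, for libraries that passed their quality control. It has no read counts, so depth is unknown and no count model was used. All columns matched a label and 0 were left over. Window GC and GENCODE vM1 genes came from NCBIM37, whose chromosome lengths match the table.

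Arms were compared by two-sided permutation tests (100000 resamples) with Benjamini-Hochberg adjustment over 15 library measures, 20 chromosomes, all windows, all bins or 12 tests against other experiments. Intervals (95%) invert the permutation test. Windows on which tests across the genome rest were positive in at least 3 libraries, and bins held at least 15 detectable windows. The tests were tried on simulated data. There the window test called 0% of 100 windows whose detection went from 0.05 to 0.5. It called 88% of 100 windows that went from 0.05 to 0.95. The bin test called 75% of 20 bins shifted by 40 points. Of windows and bins left unchanged, 0% and 0.042% were called. Named windows were the 8 with the lowest p each way, more than 1 Mb apart, and named bins the 3 each way. Of the gene loci fixed for naming, 1 is not reported here. Members, lists and tests were chosen with earlier results of these data known. The alternatives included medians, other window sets, coverage as a covariate, plate row strata and each library left out. The labels' protocol gives the stain as 1% for 10 min, while another methods section gives a weaker solution and a shorter time. Python 3.11.15, numpy 2.4.6, scipy 1.17.1 and pandas 2.3.3 were used.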

Additional observations from a re-analysis of the deposited data

Results flagged for a closer look

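In the unstained arm, 4 values lay apart from the other 9 libraries by Dixon's criterion at the 95% level, which about 1 in 20 groups meets by chance. CVD1 had the lowest neighbour share, 84.1%, and the lowest fill rate, 76.2%. CVG1 had the fewest autosomes covered, 15, and the lowest genic difference, -1.94 points. The criterion was not applied to the stained arm, which has more than 10 libraries and includes CVD5.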

How the results depend on the processing

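Of 573 alternative values, 546 were rated as the same, 20 changed direction, 4 lost and 2 gained a call, and 1 count moved. For a difference, the same means that direction and side of the threshold were kept. For a count it means an equal or similar count, and the counts of called chromosomes, windows and bins were 0 in every setting. No library measure was called between the arms under any alternative. With medians, the difference was -0.453 for the isolated rate, 0.0607 for the chromosome X ratio, -0.115 for the GC difference and 0.206 for the telomere-proximal difference. Over all listed windows the X ratio differed by 0.0160, and on the log2 scale, added after seeing the data, the isolated rate differed by -0.14. With coverage as a covariate, unevenness differed by -0.000132. With each library left out in turn, differences ranged from -0.562 to 1.20 for the isolated rate (below 0 only without CVD5), from -0.0925 to 0.0628 for the X ratio, from -0.0520 to 0.164 for the GC difference (below 0 only without CVG1) and from -2.63 to 0.0436 for the telomere-proximal difference (above 0 only without CVF2). Windows with an unadjusted p under 0.05 numbered 475 by the Cochran-Mantel-Haenszel test in strata of coverage, which changed both the test and the strata. By Fisher's exact test they numbered 1167 with a minimum of 6 positive libraries, and 1138 to 1738 with each library left out. In all of these settings 0 windows were called. Since even 0 of 16 against 8 of 10 libraries was not called, this does not show that the windows were alike.

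Against the full collection, the difference in coverage lost its call with medians (3.51) and without CVD5 (3.50). With coverage as a covariate, the neighbour share (4.14) and the fill rate (6.11) lost theirs. The isolated rate there was -0.211 with medians, -0.368 with the covariate and -0.804 without CVD5. Against the eosin test, the isolated rate gained a call with the covariate (-1.11) and without CVD1 (-0.847). Against the propidium iodide test, the neighbour share differed by 0.629 without CVD1. The settings without CVD5 and CVD1 in these comparisons were added after seeing the data, and the cause of these changes was not tested.

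No paired analysis was possible because replicate numbers only name libraries in accession order. Exchange within plate rows, which both arms share, was possible and changed no call or direction. The number of libraries limits precision, and depth is unknown.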
